A study of Mus musculus with 6 samples.

Results

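The 10 genes described here are the D cyclins and the G1 regulators around them: Ccnd1, Ccnd2, Ccnd3, Cdk4, Cdk6, Cdkn1a, Cdkn1b, Cdkn2c, Cdkn2d and Rb1. They were chosen by symbol, by taking every probe whose platform annotation gives 1 gene symbol that is among these names. The names, and the gene lists set beside them, were picked with earlier results of these data known. Counts of their calls beside the share of all genes are therefore descriptions and no independent support. This gave 27 of the 34945 probes with a single symbol and 10 of the 18193 genes they stand for. Expression was measured on 6 arrays of thymocytes sorted on surface CD4 and CD8, with 2 arrays each of DP cells (CD4+CD8+, immature), CD4intCD8+ cells (maturing) and CD8SP cells (CD4-CD8+, mature). The cells of every group came from mice homozygous for a receptor transgene (N15 TCR tg+/+), null for Rag2 (RAG-2-/-) and of the H-2b haplotype, aged 5 to 6 weeks; 6 animals were sorted in 2 experiments. Every group thus has a single T cell receptor, because Rag2, needed to assemble others, is missing, and no polyclonal thymocytes were measured. The labels do not say how the mice were divided among the arrays, and p-values therefore measure the spread between these arrays.

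D cyclins bind the kinases encoded by Cdk4 and Cdk6, and the active complexes phosphorylate the retinoblastoma protein, encoded by Rb1, which otherwise holds E2F transcription factors in check. The INK4 proteins, among them p18 (Cdkn2c) and p19 (Cdkn2d), bind these kinases and keep cyclins off, while the Cip/Kip proteins p21 (Cdkn1a) and p27 (Cdkn1b) bind cyclin-kinase complexes. In mouse thymus, cyclin D3 is known for its role in the expansion of immature thymocytes at the pre-T cell receptor stage, and cyclin D2 is a D cyclin that is induced in T cells by growth signals.

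The values are linear intensities, 1 per probe and array; some lie below 0, which needs a background to have been subtracted, and array medians lay between 24.9 and 25.7. Where a gene has several probes, the brightest on average stands for it. Changes are differences of log2(intensity + 5.84), which understates the change of dim genes. "Called" means a limma adjusted p (Benjamini-Hochberg over 10916 genes) under 0.05, and ± gives the SE of the fit unless marked SD. Of 9 markers of alpha beta thymocytes 8 were on the array with a single symbol, and their summed intensity was 20020 and 21660 for DP, then 15060 and 12250 for CD4intCD8+, then 13680 and 12390 for CD8SP. The receptor chain gene Cd3e lay between 638 and 1002 on all arrays, but 0 of the 7 markers tested had a positive change at the first step (median log2 -0.62), and 4 fell: Rag1 (-3.11), Cd8a (-0.84), Cd8b1 (-0.84) and Thy1 (-0.62). Cd4 read 351 and 515 for DP, then -33.0 and 11.8 for CD4intCD8+, then -65.8 and -68.6 for CD8SP, so that its transcript was near or below 0 in cells sorted for intermediate surface CD4. Summed intensities of the dendritic, epithelial, fibroblast, erythroid and myeloid lists lay between 69.2 and 229.6 per array. The B cell list came to 223 and 266 for DP, then 293 and 157 for CD4intCD8+, then 334 and 308 for CD8SP. Of its 3 tested genes 1, Cd79b, was called higher in CD8SP than in DP (limma adjusted p = 0.0118). Its means were 33.4 for DP, 34.1 for CD4intCD8+ and 67.2 for CD8SP. The summed list of natural killer cell markers came to 1042 and 929 for DP, then 2485 and 3012 for CD4intCD8+, then 2473 and 2761 for CD8SP. Of its 6 genes 5 were on the array and 1 was past the filter, Gzma (852 to 2949), which carried the sum. Under the filter, Klra8 stayed at or below 9.43, while Ncr1, Eomes and Klrg1 had their highest means in CD8SP. Their means for DP, CD4intCD8+ and CD8SP were 24.2, 17.0 and 37.7 (Ncr1), 22.1, 19.4 and 41.6 (Eomes), and 21.6, 14.4 and 24.5 (Klrg1). The summed list of double-negative thymocyte markers came to 326 and 314 for DP, then 564 and 565 for CD4intCD8+, then 970.2 and 1068 for CD8SP, mostly from Dtx1 and Il7r. Kit, dim and under the filter, was also higher at the later stages, with mean 8.66 for DP, then 17.4 for CD4intCD8+, then 34.5 for CD8SP. Il2ra and Hes1, also under the filter, did not rise, with means in the same order of 27.9, 29.6 and 26.6, and of 30.1, 30.8 and 28.6. Ptcra was higher than in DP only on replicate 2 of CD4intCD8+ (120) and of CD8SP (111). The 3' signal of the actin control over its 5' signal, a measure of RNA length (the actin ratio), was 1.98 and 2.14 for DP, then 2.37 and 3.47 for CD4intCD8+, then 2.28 and 2.62 for CD8SP. The part of these list sums in the results was not tested. The actin ratio was entered as a covariate in 1 of the alternatives. Both DP arrays had lower ratios than all other arrays, and replicate 2 had the higher ratio at every stage. That fit therefore cannot fully separate the ratio from stage or replicate number. A fall in signal in sorted bulk cells cannot tell fewer expressing cells from less RNA per cell.

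At the first step, CD4intCD8+ against DP, 6 of the 9 members that passed the filter on dim genes were called, beside 11.7% of all genes tested. Ccnd2 and Cdk4 rose, beside 6.86% of all genes called higher, and Ccnd3, Cdkn1b, Cdkn2d and Rb1 fell, beside 4.84% called lower. Ccnd1, Cdk6 and Cdkn2c were not called, and Cdkn1a was too dim to be tested in the fit over genes. The 2 D cyclins called changed in opposite directions. The median log2 change of the 9 genes was 0.06, against 0.01 over all genes tested. The count of 6 became 2 without DP replicate 1, 1 without DP replicate 2, 3 without CD4intCD8+ replicate 1 and 2 without CD4intCD8+ replicate 2.

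**Figure D1:**
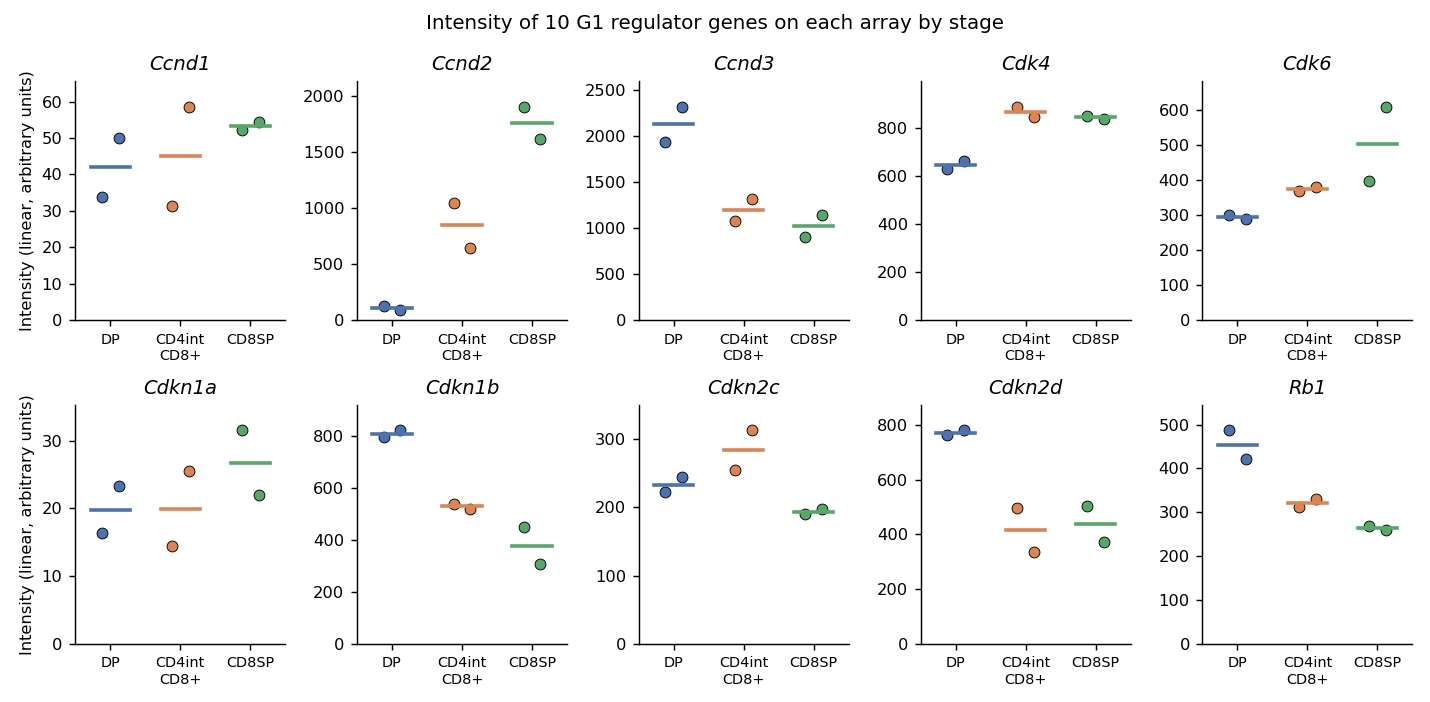
Linear intensity (y axes, each starting at 0) of the probe that stands for each of the 10 genes, on the 2 arrays of each stage (points) with their mean (lines). Ccnd2 lies at 1614 and 1906 in CD8SP and at 87.0 and 123 in DP, whereas the points of Ccnd1 and Cdkn1a for CD4intCD8+ and DP overlap.

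Among the D cyclins, Ccnd2 had the largest change of the 10 genes at either step. Ccnd2 (probe 1416122_at) had intensities of 1046 and 647 in CD4intCD8+ cells, against 123 and 87.0 in DP cells. Every CD4intCD8+ array lay above every DP array, and the lower of the CD4intCD8+ pair was the array with the actin ratio of 3.47. The log2 change was 2.92 ± 0.23 (7.58-fold; limma adjusted p = 0.000672). It was called under all 16 alternatives run, between 2.58 and 3.56.

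Ccnd3 (1415907_at), which encodes cyclin D3, had intensities of 1078 and 1318.5 in CD4intCD8+ cells, against 1931 and 2315 in DP cells. The groups did not overlap, and the DP cells had the higher values. The log2 change was -0.82 ± 0.15 (limma adjusted p = 0.0115). Without DP replicate 2 the change was -0.69 and was not called (adjusted p = 0.0826), and it was called under the other 15 alternatives.

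Ccnd1 (1417419_at), the D cyclin gene best known from epithelial and other non-lymphoid cells, was dim at every stage. Its intensities were 31.3 and 58.6 in CD4intCD8+ cells, against 33.8 and 50.1 in DP cells, near the filter on dim genes of 30.8. The DP values lay inside the CD4intCD8+ range, with a log2 change of 0.06 ± 0.28 (limma adjusted p = 0.922).

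Of the catalytic partners, Cdk4 rose and Cdk6 was not called at the first step. Cdk4 (1422441_x_at) had intensities of 890.4 and 848 in CD4intCD8+ cells, against 629 and 665 in DP cells. The groups did not overlap, and the arrays of a stage lay close together. The log2 change was 0.42 ± 0.10 (1.34-fold; limma adjusted p = 0.0319). The call was lost without any 1 of the 4 arrays compared (adjusted p from 0.0955 to 0.154), in a fit with no trend (0.0855), and in a fit with actin ratio as covariate (0.159). Cdk6 (1435338_at) had intensities of 367 and 379.9 in CD4intCD8+ cells, against 299 and 288 in DP cells. These groups did not overlap either, but the log2 change of 0.34 ± 0.19 was not called (limma adjusted p = 0.261).

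RefSeq promoter windows of 300 bases (250 before and 50 after the start of the gene, GRCm38.p6) were at hand for 7 of the 10 genes, in 10 windows. Ccnd1, Ccnd2 and Rb1 had no window, and their promoters were not searched. The 3 windows that hold the E-box CACGTG, known as a site that several factors with a helix-loop-helix fold can bind, are shown to give its place in each. Letters of the motif are in capitals and the rest in lower case, 5′ to 3′ along the gene.
Cdk4, chr10:127063285-127063584, plus strand: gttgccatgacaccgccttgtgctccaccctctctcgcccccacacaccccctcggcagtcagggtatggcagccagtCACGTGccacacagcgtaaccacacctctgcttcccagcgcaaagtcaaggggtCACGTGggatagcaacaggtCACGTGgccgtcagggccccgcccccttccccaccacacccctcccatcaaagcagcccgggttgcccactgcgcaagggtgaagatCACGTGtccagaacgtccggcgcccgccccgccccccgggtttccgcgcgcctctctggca
Cdk6, chr5:3343643-3343942, plus strand: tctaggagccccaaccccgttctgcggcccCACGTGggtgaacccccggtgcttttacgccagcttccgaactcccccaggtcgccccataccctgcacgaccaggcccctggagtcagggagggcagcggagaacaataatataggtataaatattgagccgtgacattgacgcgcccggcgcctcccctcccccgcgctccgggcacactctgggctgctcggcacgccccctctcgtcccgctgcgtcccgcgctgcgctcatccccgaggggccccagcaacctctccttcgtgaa
Cdkn2c, chr4:109665323-109665622, minus strand: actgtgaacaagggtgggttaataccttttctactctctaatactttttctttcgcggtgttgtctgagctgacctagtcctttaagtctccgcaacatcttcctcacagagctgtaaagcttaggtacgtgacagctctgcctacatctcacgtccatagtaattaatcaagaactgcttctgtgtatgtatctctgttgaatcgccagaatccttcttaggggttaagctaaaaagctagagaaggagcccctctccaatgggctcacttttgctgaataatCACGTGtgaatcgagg

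The Cdk4 window held CACGTG 4 times, beginning 172, 118, 98 and 11 bases before the start, and the Cdk6 window held it once, 220 bases before it. Of the windows of Cdkn2c, that shown held it once, beginning 35 bases after the start. Among all 32851 promoter windows, 7.15% held the motif at least once, and 8 windows (0.0244%) at least 4 times. The motif reads the same on both strands. The E2F motifs TTTCGCGC and TTTGGCGC, searched on both strands, were in 0 of the 10 windows, beside 0.323% and 0.514% of all windows. A match describes the letters and shows no binding.

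The kinase inhibitor genes did not move as 1 group at the first step: Cdkn1b and Cdkn2d fell, Cdkn2c was not called and Cdkn1a was dim. Cdkn2d (1416253_at), the p19 INK4 gene, had intensities of 497 and 337 in CD4intCD8+ cells, against 762 and 780.5 in DP cells. The DP pair lay close together and above both CD4intCD8+ arrays, which differed by more. The log2 change was -0.90 ± 0.20 (limma adjusted p = 0.0223). In the fit with actin ratio as covariate it was -0.39 and not called (adjusted p = 0.361), and without CD4intCD8+ replicate 2, the array with the highest ratio, it was -0.63 (0.0995). The call was also lost without DP replicate 1 or DP replicate 2 (0.112 and 0.114) and in a fit with no trend (0.0535).

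Cdkn1b (1434045_at), the p27 gene, had intensities of 539 and 519 in CD4intCD8+ cells, against 796 and 822 in DP cells. The arrays of each stage lay within a few percent of each other and the stages did not overlap. The log2 change was -0.61 ± 0.17 and passed the test by a narrow margin (limma adjusted p = 0.0494). It was negative under all 16 alternatives and not called under 10 of them, including each of the 4 that left out an array compared (adjusted p from 0.0728 to 0.181), and with the replicate block the adjusted p was 0.0106.

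Cdkn2c (1416868_at), the p18 INK4 gene, had intensities of 256 and 313 in CD4intCD8+ cells, against 222 and 244 in DP cells. The CD4intCD8+ values were the higher, without overlap, but the log2 change of 0.28 ± 0.15 was not called (limma adjusted p = 0.252). Cdkn1a (1421679_a_at), the p21 gene and a target of p53, had intensities of 14.4 and 25.4 in CD4intCD8+ cells, against 16.3 and 23.3 in DP cells. These overlapping values were below the minimum for testing a gene, and without that filter the log2 change was -0.01 ± 0.31.

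Rb1 (1417850_at), the substrate of the D cyclin kinases, fell at the first step. Its intensities were 313 and 331 in CD4intCD8+ cells, against 487 and 421 in DP cells, with no overlap. The log2 change was -0.49 ± 0.13 (limma adjusted p = 0.0432). It kept its sign under all 16 alternatives and was not called under 11 of them, among them each of the 6 that left out an array (adjusted p from 0.0549 to 0.23).

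**Figure D2:**
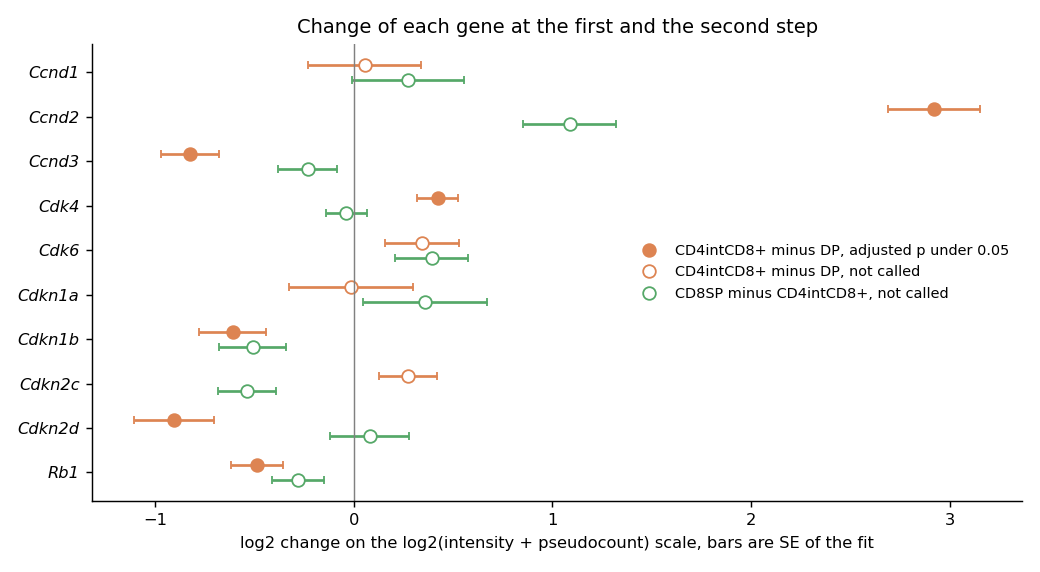
Log2 change (x axis) of each gene at the first step (CD4intCD8+ minus DP) and the second step (CD8SP minus CD4intCD8+), with bars for the SE of the fit and filled points for adjusted p under 0.05. Ccnd2 stands at 2.92 and 1.09, and no gene is called at the second step.

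At the second step, CD8SP against CD4intCD8+, 0 of the 9 tested members were called by limma, beside 0.119% of all genes tested. An unadjusted p under 0.05 was found for 3 members, beside 1049 of the 10916 genes tested. Ccnd2 had intensities of 1906 and 1614 in CD8SP cells, against 1046 and 647 in CD4intCD8+ cells. The CD8SP values were again the higher, without overlap, with a log2 change of 1.09 ± 0.23 (limma adjusted p = 0.136). With the replicate block, which takes the numbers 1 and 2 as the paired experiments, Ccnd2 was called (adjusted p = 0.00303), as it was without CD4intCD8+ replicate 1 (1.43, adjusted p = 0.0138).

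The other members with an unadjusted p under 0.05 at the second step were inhibitors, both with lower values in CD8SP cells. Cdkn2c had intensities of 189.7 and 197 in CD8SP cells, against 256 and 313 in CD4intCD8+ cells. The groups did not overlap, and the log2 change was -0.54 ± 0.15 (limma adjusted p = 0.246, and 0.0542 with the replicate block). Cdkn1b had intensities of 449 and 305 in CD8SP cells, against 539 and 519 in CD4intCD8+ cells. These did not overlap either, but the CD8SP pair was spread more widely, and the log2 change was -0.51 ± 0.17 (limma adjusted p = 0.352).

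The remaining members had log2 changes between -0.28 and 0.39 at the second step. Cdk4 had intensities of 853 and 838 in CD8SP cells, against 890.4 and 848 in CD4intCD8+ cells. The ranges overlapped, with a log2 change of -0.04 ± 0.10. Cdk6 had intensities of 397 and 609 in CD8SP cells, against 367 and 379.9 in CD4intCD8+ cells. CD8SP replicate 2 was far above the other arrays for this gene, and the log2 change of 0.39 ± 0.19 was 0.09 without that array.

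The genes that fell at the first step, other than Cdkn1b, had smaller second-step values. Ccnd3 had intensities of 903 and 1138 in CD8SP cells, against 1078 and 1318.5 in CD4intCD8+ cells, and the overlapping groups differed by -0.23 ± 0.15 on the log2 scale (limma adjusted p = 0.687). Rb1 had intensities of 267 and 260.3 in CD8SP cells, against 313 and 331 in CD4intCD8+ cells. The Rb1 groups did not overlap, with a log2 change of -0.28 ± 0.13 (limma adjusted p = 0.537). Cdkn2d had intensities of 505 and 371 in CD8SP cells, against 497 and 337 in CD4intCD8+ cells, and its overlapping groups differed by 0.08 ± 0.20 (limma adjusted p = 0.94). The dim genes also overlapped: Ccnd1 had 52.1 and 54.4 in CD8SP cells, against 31.3 and 58.6 in CD4intCD8+ cells, and Cdkn1a had 31.5 and 22.0 in CD8SP cells, against 14.4 and 25.4 in CD4intCD8+ cells.

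Over the whole span, CD8SP against DP, 7 of the 9 tested members were called, beside 19.8% of all genes tested. Ccnd2, Cdk4 and Cdk6 rose (11.5% of all genes were called higher), and Ccnd3, Cdkn1b, Cdkn2d and Rb1 fell (8.35% called lower). This comparison shares its arrays with both steps and adds no independent evidence to them. Ccnd2 averaged 1760 ± 207 in CD8SP cells and 105 ± 25.6 in DP cells (SD, n = 2 each), a log2 change of 4.01 ± 0.23 (limma adjusted p = 3.3e-05). Ccnd3 averaged 1021 ± 166 in CD8SP cells and 2123 ± 272 in DP cells (SD, n = 2 each), a log2 change of -1.06 ± 0.15 (limma adjusted p = 0.00168). The cyclin D2 transcript signal thus was 16.1-fold its DP level at the CD8SP stage on this scale, and that of cyclin D3 0.481-fold.

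Cdkn1b averaged 377 ± 101 in CD8SP cells and 809 ± 18.5 in DP cells (SD, n = 2 each), with a log2 change of -1.12 ± 0.17 (limma adjusted p = 0.00237). Rb1 averaged 264 ± 5.09 in CD8SP cells and 454 ± 46.6 in DP cells (SD, n = 2 each), with a log2 change of -0.77 ± 0.13 (limma adjusted p = 0.00416). Ccnd2, Ccnd3, Cdkn1b and Rb1 were called over the span under all 16 alternatives. Cdkn2d changed by -0.82 ± 0.20 (limma adjusted p = 0.0203), and its CD8SP arrays (505 and 371) lay below both DP arrays (762 and 780.5). Cdk6 rose by 0.73 ± 0.19 (limma adjusted p = 0.0245) and Cdk4 by 0.38 ± 0.10 (limma adjusted p = 0.0311). The calls of Cdk6 and Cdkn2d were lost without DP replicate 1, DP replicate 2 or CD8SP replicate 2. That of Cdk4 was lost without any 1 of the 4 arrays compared and in a fit with no trend. That of Cdk6 was also lost with the mean of all probes (limma adjusted p = 0.148). The count of 7 became 4 without DP replicate 1, without DP replicate 2 or without CD8SP replicate 2.

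Whether the signed changes of the 2 steps differed was tested by setting CD4intCD8+ against the mean of DP and CD8SP. This is the first change minus the second, divided by 2. It does not tell which step is larger in size where a gene falls or where the steps differ in sign. Of the 9 tested members 0 were called by limma, beside 0.00916% of all genes tested. An unadjusted p under 0.05 was found for 5 of them, beside 1389 of the 10916 genes tested. Ccnd2 differed by 0.92 ± 0.20 (limma adjusted p = 0.28), and was called with the replicate block (0.00819) and in the fit with actin ratio as covariate (1.39, adjusted p = 0.00673). Cdkn2c and Cdk4 had their highest means at the intermediate stage and differed by 0.41 ± 0.13 and 0.23 ± 0.09 (limma adjusted p = 0.298 and 0.345).

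Probes of a gene share its transcripts and are not replicates, but they show whether a value rests on 1 probe. In a fit with each of 27022 probes that passed the filter as its own row, 14 of the 22 member probes tested were called at the first step, beside 5.74% of all probes. Leaving out DP replicate 2 gave 6 calls, leaving out DP replicate 1 gave 7 and leaving out CD4intCD8+ replicate 2 gave 9. All 7 probes of Ccnd2 were called, with log2 changes between 2.52 and 3.08. The dimmest, 1416124_at, had intensities of 56.5 and 33.2 in CD4intCD8+ cells, against -2.88 and -3.86 in DP cells. Its fold therefore rests on the pseudocount, and it passed the probe filter of 17.1 only through the later stages. Its call, counted among the 14, adds no support, and the other Ccnd2 probes changed by 2.52 to 3.065.

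All 3 probes of Ccnd3 were called, and they differed in size. The other probes, 1438805_at and 1444323_at, changed by -0.87 ± 0.16 and -1.54 ± 0.20. The 1444323_at probe had intensities of 51.9 and 50.5 in CD4intCD8+ cells, against 190.2 and 134 in DP cells. All 3 probes of Cdk4 were called too, with log2 changes of 0.42, 0.49 and 0.61. The smallest value belongs to the _x_at probe that stands for the gene, a suffix that in this naming scheme marks probes which may also match other transcripts.

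For the other genes the further probes were dim or were not called. Cdk6 had log2 changes of 0.34 ± 0.19 and 0.59 ± 0.29 for its brighter probes and -0.41 ± 0.41 for 1460291_at, which lay under 30 on every array. The further probe of Rb1 (1444400_at), at or below 24.1 on every array, changed by 0.08 ± 0.36, and that of Cdkn1b (1419497_at), at or below 30.1, by -0.72 ± 0.50. In this fit, which adjusts over more rows, Cdkn1b and Rb1 were not called by their leading probes (adjusted p = 0.0722 and 0.0679), while Cdkn2d was (0.0335). With the replicate block 16 member probes were called, among them those of Cdkn1b (0.016) and Rb1 (0.0213). The share of all probes called is not given for that fit or for those with an array left out, and 5.74% belongs to the unpaired fit. Over genes, the block raised all calls at this step from 1277 to 2562. The probes of Ccnd1 changed by 0.06, -0.10 and -0.29, none called. The leading probe of Cdkn1a passed the filter on dim probes, changed by -0.01 and was not called (limma adjusted p = 0.988). Its further probe (1424638_at), under that filter, changed by 0.49 ± 0.44. Cdkn2c and Cdkn2d had 1 probe each.

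**Figure D3:**
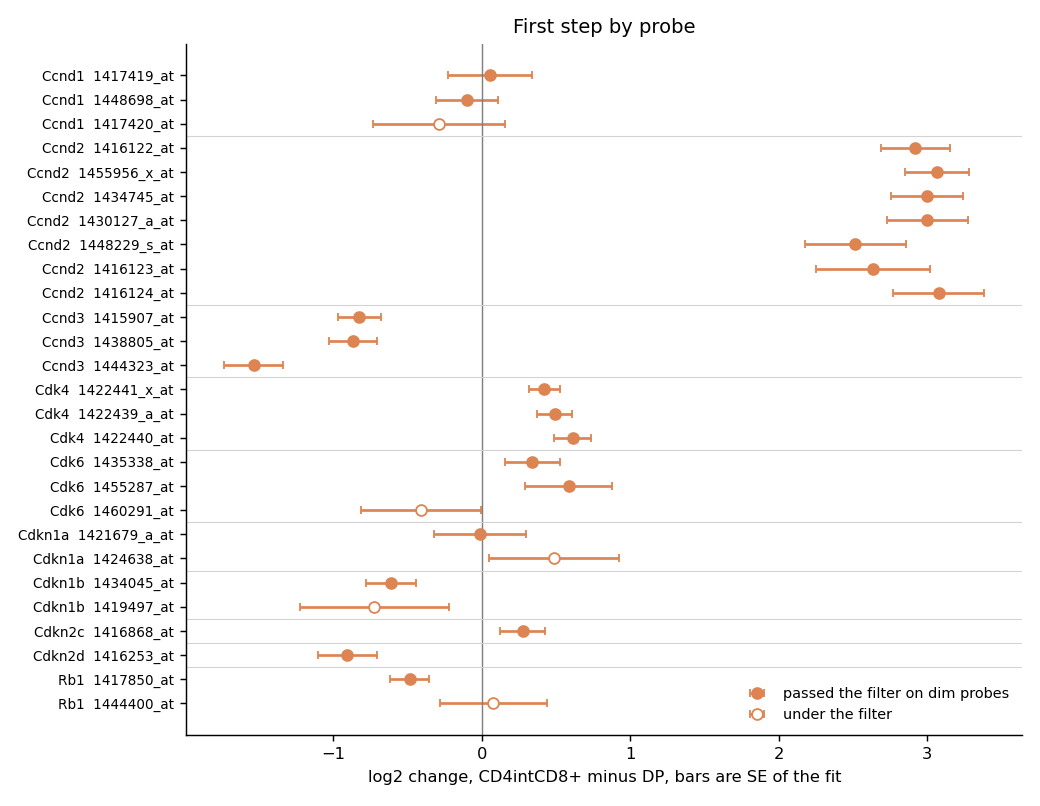
Log2 change at the first step (x axis, CD4intCD8+ minus DP) for each of the 27 probes, with bars for the SE of the fit; open points lay under the filter on dim probes. The 7 probes of Ccnd2 lie between 2.52 and 3.08 and the 3 of Ccnd3 between -1.54 and -0.82.

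Of the other genes of the G1/S pathway, 25 of 27 passed the filter, and at the first step 5 rose, 1 fell and 19 were not called, beside 6.86% of all genes called higher and 4.84% called lower. Their median log2 change was 0.26, against 0.01 over all genes tested. Over all genes tested, the 1277 calls at this step became 2562 with the replicate block and 407 with the actin covariate. Myc, the transcription factor known to act on D cyclin and Cdk4 genes, had intensities of 95.4 and 116 in CD4intCD8+ cells, against 43.8 and 27.8 in DP cells. The groups did not overlap, and the log2 change was 1.44 ± 0.21 (limma adjusted p = 0.00586), called under all 16 alternatives.

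The E cyclins, which act with Cdk2 after the D cyclins, both rose. Ccne1 had intensities of 142 and 231 in CD4intCD8+ cells, against 71.4 and 89.4 in DP cells, and changed by 1.13 ± 0.22 (limma adjusted p = 0.0145). Ccne2 had intensities of 143 and 232 in CD4intCD8+ cells, against 69.7 and 72.9 in DP cells, and changed by 1.29 ± 0.22 (limma adjusted p = 0.0101). For both genes the higher CD4intCD8+ value was that of replicate 2, the array with the actin ratio of 3.47. Without that array Ccne1 changed by 0.79 (adjusted p = 0.0538), and with the ratio as covariate Ccne1 changed by 0.55 and Ccne2 by 0.70, neither called (adjusted p = 0.216 and 0.0995). Without either DP array both calls were lost (adjusted p from 0.0631 to 0.109).

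Of the E2F genes, E2f3, an activating member, rose by 0.73 ± 0.17 (limma adjusted p = 0.0269), and E2f6, a repressive member, by 0.90 ± 0.19 (limma adjusted p = 0.0198). E2f3 had intensities of 114 and 133 in CD4intCD8+ cells, against 81.8 and 63.4 in DP cells, and E2f6 had 103 and 112 in CD4intCD8+ cells, against 66.9 and 44.4 in DP cells. Neither gene had overlapping groups. With the mean of all probes they changed by 0.48 and 0.35 and were not called (adjusted p = 0.0986 and 0.358). Neither was called without DP replicate 2 (E2f3 0.149, E2f6 0.109) or CD4intCD8+ replicate 2 (E2f3 0.132, E2f6 0.0715), nor E2f3 without DP replicate 1 (0.0576). Rbl2, which encodes the retinoblastoma relative p130, had intensities of 333 and 343 in CD4intCD8+ cells, against 557 and 465 in DP cells. Its log2 change was -0.58 ± 0.14 (limma adjusted p = 0.0284), in the same direction as that of Rb1, and was not called without any 1 of those 4 arrays (adjusted p from 0.0664 to 0.176).

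The count of 6 became 12 with the replicate block, 1 with the actin covariate, and between 1 and 10 when an array of either stage was left out. It was 1 without DP replicate 2, 2 without DP replicate 1 or CD4intCD8+ replicate 2, and 10 without CD4intCD8+ replicate 1. At the second step 0 of the 25 were called by limma. An unadjusted p under 0.05 was found for 2 of them, beside 1049 of the 10916 genes tested. The largest values were those of Myc (0.78), Cdkn1c (-0.47), a Cip/Kip gene, Cdk2 (-0.39) and E2f8 (-0.29), a repressive E2F.

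**Figure D4:**
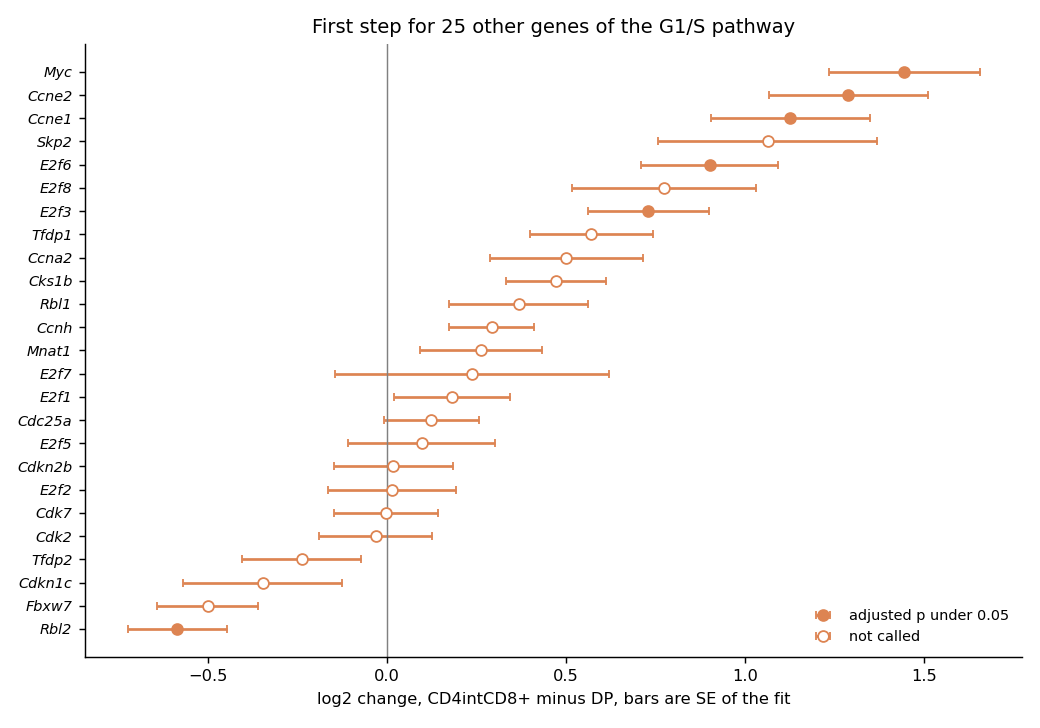
Log2 change at the first step (x axis, CD4intCD8+ minus DP) of the 25 other G1/S pathway genes that passed the filter, ordered by size, with bars for the SE of the fit and filled points for adjusted p under 0.05. Myc, at 1.44, is the highest, and Rbl2, at -0.58, the lowest.

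Genes that act downstream of G1 were set beside these by counts and medians, with no test of a list as a whole. Over all genes tested, the 749 called higher at the first step became 1456 with the replicate block and 238 with the actin covariate. List counts under those settings moved along with these totals. Of 19 tested S phase genes 13 rose and 0 fell at the first step, with a median log2 change of 0.76, beside 6.86% of all genes called higher. Cdc6 (1.86) and Gins2 (1.65), which help load and form the replicative helicase, had the largest changes. With the actin covariate these were 0.88 (adjusted p = 0.0433) and 0.83 (0.0953), and both calls were lost without DP replicate 1 (0.0789 and 0.0843) or DP replicate 2 (0.0556 and 0.0612). Of 11 tested G2 and mitosis genes 1 was called higher, a share near that of all genes. It was Bub1, a spindle checkpoint kinase (1.14 ± 0.20, limma adjusted p = 0.0103). All 11 had a positive change, with a median log2 change of 0.60, against 0.01 over all genes tested, of which 5629 of 10916 were positive. Bub1 was not called once DP replicate 1 (0.0695) or DP replicate 2 (0.0661) was left out, nor with the actin covariate (0.122). The kinase gene Aurkb (0.93) was next in size and not called (adjusted p = 0.0773). For Aurkb the adjusted p was 0.00491 with the replicate block and 0.00664 without CD4intCD8+ replicate 1, while the change was 0.06 with the actin covariate and 0.47 without CD4intCD8+ replicate 2. The counts for S phase and for mitosis were 16 and 8 with the replicate block, 2 and 0 with the actin covariate, 16 and 8 without CD4intCD8+ replicate 1 and 5 and 1 without CD4intCD8+ replicate 2. Without DP replicate 1 they were 1 and 0, without DP replicate 2 they were 2 and 0, and without either CD8SP array the mitosis count was 4.

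The tested genes most like each called member were listed by Pearson correlation over the 6 arrays on the log2 scale. The arrays fall into 3 stages and so give few independent points, and the values are the highest of 10915 for each member, given as a description. For Ccnd2 these were H2-M3, Prmt8 and Chchd10 (r from 0.998 to 0.999). Of these, Chchd10 read 52.7 and 37.2 for DP, then 204 and 168 for CD4intCD8+, then 339.99 and 287 for CD8SP.

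For Ccnd3 the most alike were Ttbk2, Mtmr3 and Nav2 (r from 0.996 to 0.998), and Nav2 had log2 changes of -1.95 and -0.77 at the 2 steps. For Cdk4 they were Tmed10, 4930597G03Rik and Slc39a11, for Cdk6 Tram2, Wrn and Ptpn23, for Cdkn1b Cdk19, Ccng2 and Usp33, for Cdkn2d Mgst2, Marchf2 and Ppp1r35, and for Rb1 Mr1, Kat6b and Cdc42ep2 (r from 0.982 to 0.999). Ccng2, which encodes cyclin G2, read 1234 and 1266 for DP, then 823 and 866 for CD4intCD8+, then 703 and 530.5 for CD8SP. Mr1, which encodes an antigen-presenting molecule of the MHC class I type, read 186 and 137 for DP, then 43.9 and 54.9 for CD4intCD8+, then 21.1 and 20.5 for CD8SP.

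**Figure D5:**
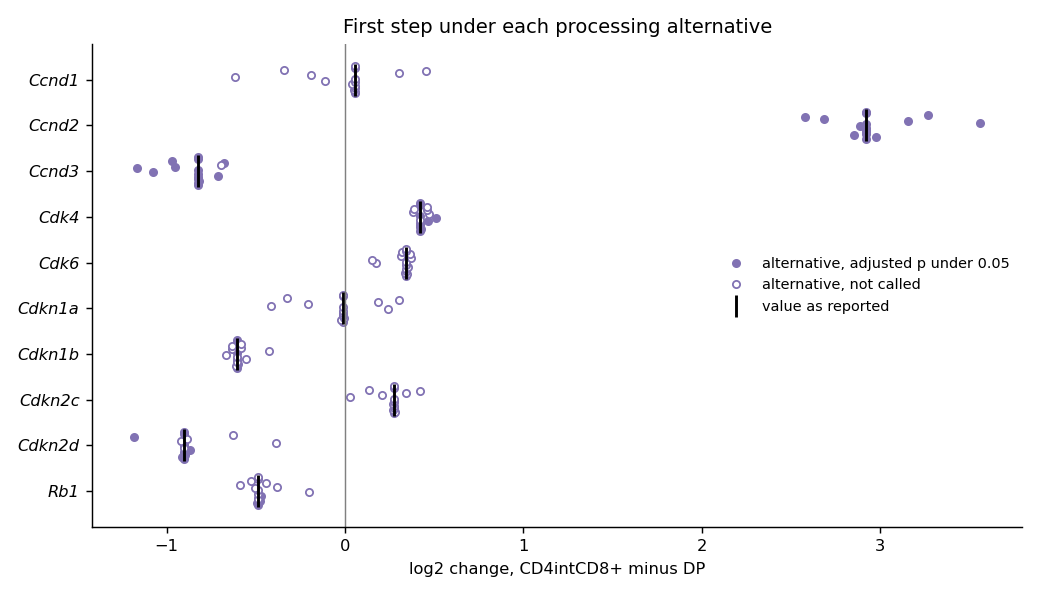
Log2 change at the first step (x axis, CD4intCD8+ minus DP) of each gene as reported (bar) and under each of the 16 processing alternatives (points, filled where the adjusted p is under 0.05). Ccnd2 is called under all 16 and Ccnd3 under 15, while Ccnd1 and Cdkn1a have points on both sides of 0.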

How the data were processed

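Total RNA of the sorted cells was converted to biotin-labelled cRNA, per the labels' protocols. The authors deposited 1 linear intensity per probe and array; the software, background correction and scaling behind these values are not given in the sources used here. Of the non-control values, 3.6% lay below 0. Genes were named from the platform annotation. Values below 0 were set to 0, and a pseudocount of 5.84 (the 10th percentile of the positive values) was added before log2. Genes had to reach the 40th percentile of mean log2 values (an intensity of 30.8), which kept 10916 of 18193 genes; for probes the 40th percentile was 17.1. All 6 arrays were fitted with limma 3.58.1 (R 4.3.3; lmFit, eBayes with an intensity trend, 3 residual degrees of freedom), with stage as the only term, after the script was tested on simulated data. Arrays of the same replicate number deviated together across genes in each pair of stages (correlations 0.261, 0.205 and 0.303), and the labels name 2 independent experiments without saying that the numbers mark them. The reported fit is unpaired; the fit with the numbers as pairs is an alternative, given beside the results it changes. The alternatives were the replicate block, pseudocounts of 1 and 11.8, no filter or one at the 60th percentile, quantile normalization, no trend, the mean of all probes, the 4 arrays compared alone, the actin ratio as a covariate and leaving out each array. The members and lists were chosen with earlier results of these data known. Named genes are the members, the called genes of the G1/S list or else the 4 with the largest changes, the 2 largest of each further list, the 3 genes most like each called member, and markers beside results. The number of arrays limits the precision.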

Additional observations from a re-analysis of the deposited data

How the results depend on the processing

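Of 630 recomputed member changes, 558 kept their direction and their side of the threshold, 45 lost a call, 4 gained a call and 23 changed sign. Every change of sign concerned a value that was not called as reported. Apart from the calls given above (Ccnd2 at the second step and in the contrast with the mean of DP and CD8SP), the replicate block changed no call of a member in the fit over genes; the probes and list counts it moved are given with their values. Where no cause is given, it was not tested.

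Members called at the first step were 6 as reported, 2 without the intensity trend, 2 with the actin ratio as a covariate and between 1 and 5 with an array left out; the probe count of 14 became 6, 8 and between 6 and 13. At the second step the count of 0 became 1 with the replicate block and lay between 0 and 1 with an array left out. Over the whole span the count of 7 lay between 4 and 7 with an array left out. Against the mean of DP and CD8SP the count of 0 became 1 with the replicate block and 1 with the actin covariate. Over all genes, the first step's 1277 calls became 2562 with the block, 801 without the trend, 764 with the mean of all probes, 407 with the actin covariate and between 187 and 1399 with an array left out (187 when it was DP replicate 2, 317 for DP replicate 1 and 473 for CD4intCD8+ replicate 2). The second step's 13 calls became 227 with the block, 8 with the 60th percentile filter, 2 with the mean of all probes, 8 with the 4 arrays compared alone, 34 with the actin covariate and between 6 and 70 with an array left out (6 without either DP array, 70 without CD4intCD8+ replicate 1 and 7 without CD8SP replicate 1); as reported 11 were higher and 2 lower, after quantile normalization 11 and 4, and without CD8SP replicate 2, with 14 calls, 5 and 9.

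With the mean of all probes, Ccnd1 changed by -0.11, -0.24 and -0.35 at the first step, the second step and over the span and by 0.065 against the mean of the other stages, Cdkn1a by 0.24 at the first step and 0.0078 against that mean, and Rb1 by 0.15 against it. With the actin covariate, Ccnd1 changed by -0.62 at the first step and -0.017 over the span, Cdkn2d by -0.17 at the second step and Cdkn1b by 0.084 against the mean. With an array left out, the first step ranged from -0.34 to 0.45 for Ccnd1 and from -0.33 to 0.30 for Cdkn1a, and the second from -0.13 to 0.67 for Ccnd1 and from -0.20 to 0.36 for Cdkn2d. Against the mean, the ranges were -0.51 to 0.29 (Ccnd1), -0.18 to 0.13 (Cdk6), -0.50 to 0.13 (Cdkn1a) and -0.19 to 0.086 (Cdkn1b).

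Ccnd1 and Cdkn1a lay near the limit of the filter, so their signal over background bounds what their changes can show.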
